A study of Mus musculus with 6 samples.

Results

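IGHV1-53 is the heavy chain V gene read in the knock-in antibody of the 564Igi mouse. It was followed here across the spleen B cells of 2 mice. Its members were the heavy chain contigs, assembled receptor transcripts of single cells, that carried the V gene name IGHV1-53, were productive and of high confidence, and held at least 2 unique molecular identifiers (UMIs, which count captured RNA molecules). Barcodes counted as B cells if the B cell receptor table alone, and not that for T cells of the same mouse, called them cells. By this rule 2038 of 8788 heavy chain contigs were members, 1912 of 3593 in 564Igi and 126 of 5195 in WT. The study made 3 kinds of droplet library from the spleen of each mouse after removing Ter-119-positive erythroid cells. These covered the receptors of B cells, the receptors of T cells and the 5′ ends of all transcripts, and the last kind was not analysed here. The 564Igi mouse was heterozygous and carried both knock-in alleles of its line, Ightm1(Igh564)Tik for the heavy chain and Igktm1(Igk564)Tik for the kappa light chain, on a B6.129S4(Cg) background. The WT mouse was a C57BL/6JRj, so the mice also differed in strain background. Ages are not stated in the labels.

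With 1 mouse per group no difference between the mice could be set against the spread between animals, and no p-value was computed. Shares carry exact 95% binomial intervals, and differences carry Newcombe intervals in percentage points. Both cover counting error over contigs only. The B cell tables held 747499 UMIs in 564Igi and 927382 in WT, over 4200 and 6858 barcodes called cells in 564Igi and WT. The libraries shared 38 barcodes called B cells in both mice, which held 14 members in 564Igi and 1 in WT. Cell type rests on the receptor calls, since no other markers were read, and no doublet caller was run.

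A heavy chain variable region is assembled in each developing B cell by joining 1 V, 1 D and 1 J gene segment, and the join forms the third complementarity-determining region (CDR3), which runs from a conserved cysteine to a conserved tryptophan and often dominates antigen contact. A knock-in allele supplies a joined V(D)J unit in advance, yet an upstream germline V segment can still be joined into such a unit in mice, which is called V replacement, and the other allele can rearrange in the usual way. After activation, B cells can alter the joined exon base by base (somatic hypermutation) and exchange the IGHM and IGHD constant genes for IGHG, IGHA or IGHE genes (class switching).

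In the RefSeq table of GRCm38.p6, Ighv1-53 is a V segment of 391 bases on chromosome 12, 115158445 to 115158835. Its listed neighbours are Ighv1-52 at 115145487 to 115145780 and Ighv8-6 at 115165777 to 115166077. The segment lies 1.73 Mb from Ighj4 (113428514 to 113428567), and 93 of 132 V segments listed have lower coordinates. Several IGHV1 genes are close in sequence, so a contig could have been named for a near-identical relative, and the tables hold the sequence of the CDR3 only. Changes elsewhere in the V gene therefore could not be read.

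The members fell into 4 classes. The first is the 564Igi contigs with the CDR3 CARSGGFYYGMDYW, the exact class. The second is the near copies, 564Igi contigs of the same 14 residues with 1 to 5 residue differences. The remaining 564Igi contigs are called the others, and the WT contigs form the fourth class. The reference CDR3 and the light chain found with it are printed 5′ to 3′ from the deposited tables. They are taken as the knock-in chains because they were the most frequent in 564Igi, since the labels give no sequence. Capitals in the heavy chain mark its last 30 bases, called the knock-in end, and capitals in the variant mark its changed base.
Knock-in heavy CDR3: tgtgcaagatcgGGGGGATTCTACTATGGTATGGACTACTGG
Silent variant, 1 cell: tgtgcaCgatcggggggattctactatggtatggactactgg
Knock-in light CDR3 (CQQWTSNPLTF, IGKV4-59 with IGKJ5): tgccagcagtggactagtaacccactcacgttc

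Near copies are printed with each base that differs from the knock-in CDR3 in capitals, because the positions and the repeated cells carry the results below. Base positions count from 1 at the first base of the cysteine codon.
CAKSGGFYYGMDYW: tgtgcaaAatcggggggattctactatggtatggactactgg
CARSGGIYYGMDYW: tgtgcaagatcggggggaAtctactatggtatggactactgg
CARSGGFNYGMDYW: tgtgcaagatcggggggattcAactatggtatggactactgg
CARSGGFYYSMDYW: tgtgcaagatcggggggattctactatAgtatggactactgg
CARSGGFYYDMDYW: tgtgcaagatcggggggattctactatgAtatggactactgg
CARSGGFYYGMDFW: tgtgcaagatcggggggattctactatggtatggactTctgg
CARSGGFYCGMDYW: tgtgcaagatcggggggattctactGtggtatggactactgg
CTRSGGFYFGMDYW: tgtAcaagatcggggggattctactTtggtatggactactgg
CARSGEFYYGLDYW: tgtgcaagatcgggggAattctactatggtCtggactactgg
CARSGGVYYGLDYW: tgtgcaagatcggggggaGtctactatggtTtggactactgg
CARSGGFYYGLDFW: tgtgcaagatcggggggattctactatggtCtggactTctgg
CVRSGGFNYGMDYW: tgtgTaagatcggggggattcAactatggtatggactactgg
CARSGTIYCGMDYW: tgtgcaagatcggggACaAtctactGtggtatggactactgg
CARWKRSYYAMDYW: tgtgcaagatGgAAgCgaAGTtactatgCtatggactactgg

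Examples of the others that carry the knock-in end are printed with that end in capitals, because they show new bases in front of an intact end, and the nearest WT contig is printed with its differences from the knock-in CDR3 in capitals.
16 residues, no D named: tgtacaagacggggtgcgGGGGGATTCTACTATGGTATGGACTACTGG
20 residues, IGHD1-1: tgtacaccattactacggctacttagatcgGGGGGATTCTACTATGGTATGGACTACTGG
23 residues, IGHD1-1: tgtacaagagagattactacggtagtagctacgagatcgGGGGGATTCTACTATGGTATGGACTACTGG
19 residues, IGHD1-1: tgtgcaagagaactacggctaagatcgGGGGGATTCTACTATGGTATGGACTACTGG
26 residues, IGHD2-4, 3 cells: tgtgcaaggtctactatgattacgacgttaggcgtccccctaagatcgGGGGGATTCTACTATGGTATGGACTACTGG
WT, 14 residues, IGHD3-1 with IGHJ4: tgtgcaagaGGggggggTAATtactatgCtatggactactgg

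The share of IGHV1-53 among heavy chain contigs was 53.2% (51.6 to 54.9) in 564Igi and 2.43% (2.02 to 2.88) in WT, a 21.9-fold ratio. IGHV1-53 was chosen by this measured share and by its place in the most frequent 564Igi chain, and the classes were chosen by their CDR3, so these values are a description. Of the 1912 contigs in 564Igi, 96.4% were of the exact class, 0.889% (0.519 to 1.42) were near copies and 2.67% (1.99 to 3.49) were others. With the knock-in CDR3 left out under every V gene name, the share was 3.92% (3.06 to 4.95; 68 of 1734 contigs) in 564Igi, against 2.43% in WT, a difference of 1.496 points (0.520 to 2.60) and a 1.62-fold ratio. Of the 64 V genes with at least 20 contigs in either mouse, 23.4% were at least 1.5-fold higher and 28.1% at least 1.5-fold lower in 564Igi.

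The difference was smaller once chains related to the knock-in by sequence were left out. Without the near copies of any V gene name, the 564Igi share was 3.01% (2.25 to 3.94), a difference from WT of 0.589 points (-0.299 to 1.60). Without any chain carrying the knock-in end, it was 2.51% (1.61 to 3.70; 24 of 958) in 564Igi, against 2.43% in WT, a difference of 0.0798 points (-0.923 to 1.34). Leaving those groups out brought the level of the gene in 564Igi to within counting error of that in WT. Both groups were picked by likeness to an IGHV1-53 chain, so part of this fall follows from how they were picked. Near copies were left out of 564Igi only. With 14-residue chains of 1 to 5 differences left out of both mice, the difference was 0.630 points (-0.258 to 1.64). Among 749 chains of 564Igi that were longer than the knock-in CDR3 and carried its end, IGHV1-53 was used by 28, or 3.74% (2.50 to 5.36).

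**Figure D1:**
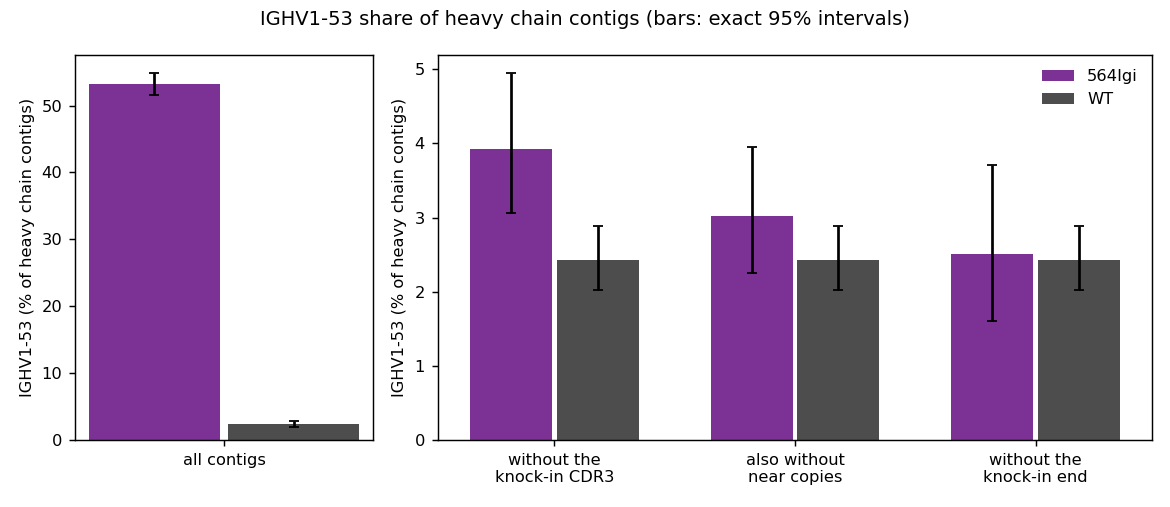
IGHV1-53 as a percentage of heavy chain contigs in 564Igi and WT, with exact 95% intervals over contigs of 1 mouse each. The left axis reaches 53.2% for all 564Igi contigs, and on the right the 564Igi share is 3.92%, 3.01% and 2.51% as chains related to the knock-in are left out, beside 2.43% in WT.

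Without the knock-in CDR3, IGHV1-53 ranked 2 among V genes in 564Igi and 10 in WT. The 68 contigs behind this rank, and behind the ratio below, include the 17 near copies. Without near copies 51 contigs remained, fewer than the 58 of IGHV1-19, and the ratio to WT was 1.24-fold. In 564Igi its interval overlapped those of its neighbours in rank, IGHV9-3 at 5.42% (4.40 to 6.59) and IGHV1-19 at 3.34% (2.55 to 4.30). In WT it overlapped those of IGHV1-9 at 2.85% (2.41 to 3.34) and IGHV1-15 at 2.33% (1.94 to 2.78). By the log2 ratio of shares, 564Igi over WT, which was 0.69 for IGHV1-53, the most alike genes over the 2 mice were IGHV2-5 (0.71, from 18 and 33 contigs in 564Igi and WT), IGHV1-19 (0.77, from 58 and 102) and IGHV2-3 (0.79, from 26 and 45).

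The exact class was uniform at the base level. Of its 1844 contigs, 1843 had the same 42 bases and 1 had the silent change A7C, at 70 UMIs. All carried IGHJ4 and the D name IGHD3-1, as 1 shared sequence must. The contigs had between 2 and 4150 UMIs, with a median of 19 (18 to 19) and quartiles of 13 and 26. A count of 16 had at most 3 UMIs, the median at which the chain was read in T cell barcodes. Of the barcodes called T cells alone, 13.9% in 564Igi and 0.0306% in WT held an IGHV1-53 contig.

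Constant genes of the exact class were almost all unswitched. IGHM, the constant gene of IgM, was named in 1412 of 1815 contigs and IGHD, spliced from the same transcripts in mature B cells, in 398, or 21.9% (20.04 to 23.9). Another 29 contigs had no constant gene named. Switched genes were named in 5 contigs, 0.275% (0.0895 to 0.642). These were IGHG2C at 6, 8 and 9 UMIs, IGHG2B at 14 UMIs and IGHG3 at 39 UMIs, and 4 of the 5 lay below the upper quartile of the class.

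The exact heavy chain was nearly always found with the knock-in light chain. Of 1717 cells with a light chain, 1666, or 97.0% (96.1 to 97.8), had it as the light chain with most UMIs, and 127 cells had no light chain. Lambda chains were found in 18 cells and other kappa chains in 33, of which 6 kept IGKV4-59 and IGKJ5 with altered CDR3 bases. The most frequent of the other light chains joined IGLV1 to IGLJ3 in 12 cells, and IGKV1-117 to IGKJ2 and IGLV1 to IGLJ1 in 5 cells each. Of the 6 altered light chains, 5 shared the base change T18A, which gives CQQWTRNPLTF, and 1 had a silent change.
Light CDR3 with T18A: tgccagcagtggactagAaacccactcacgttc

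The T18A light chain was unevenly spread over depth. Its 5 cells had 3270, 3218, 2564, 27 and 5 heavy chain UMIs, all with IGHM. Of the 8 exact cells with at least 1000 heavy chain UMIs, 3 carried T18A, 4 the unaltered knock-in light chain and 1 a lambda chain, and all 8 were IGHM. Of the 1709 exact cells under 1000 UMIs that had a light chain, 2 carried T18A. The 3 deepest T18A cells had 7584, 6893 and 7982 light chain UMIs. Whether the cells at 27 and 5 UMIs carry RNA released by the deep ones was not tested.

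The knock-in CDR3 was also found under other V gene names in 564Igi. There were 15 such contigs, 0.807% of all 1859 with this CDR3, spread over 13 V genes. IGHV3-1 and IGHV5-17 had 2 each, and IGHV1-34, IGHV1-50, IGHV1-55, IGHV1-62-2, IGHV1-62-3, IGHV1-69, IGHV1-72, IGHV1-74, IGHV1-85, IGHV2-2 and IGHV9-3 had 1 each. All but the IGHV2-2 contig, which had A6C, matched the 42 bases in full. Their UMIs ran from 4 to 32 with a median of 19, none was switched, and none of these cells also held an IGHV1-53 contig of the exact class.

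The near copies differed from the exact class in constant gene and light chain. There were 17 contigs with 14 distinct CDR3s, and their CDR3 was the sole criterion of the class. Switched constant genes were named in 9 of 17 near copies, 52.9% (27.8 to 77.0), and in 0.275% of the exact class, a difference of 52.7 points (27.5 to 76.7). With each distinct CDR3 counted once, by its contig with most UMIs, 6 of 14 near copies were switched, 42.9% (17.7 to 71.1). So counted, the exact class shrank to 2 contigs, neither of them switched, and its 5 switched contigs dropped out. The difference was then 42.9 points (-45.0 to 71.1), an interval that included 0. With 2 contigs on 1 side, this count cannot decide whether the difference rests on repeated CDR3s. The others had 0 switched of 49 and WT 0 of 120 contigs, which allow shares of up to 6.12% and 2.50% in the others and WT (3 counts). In other V genes, 1.29% of 564Igi and 0.546% of WT contigs were switched.

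**Figure D2:**
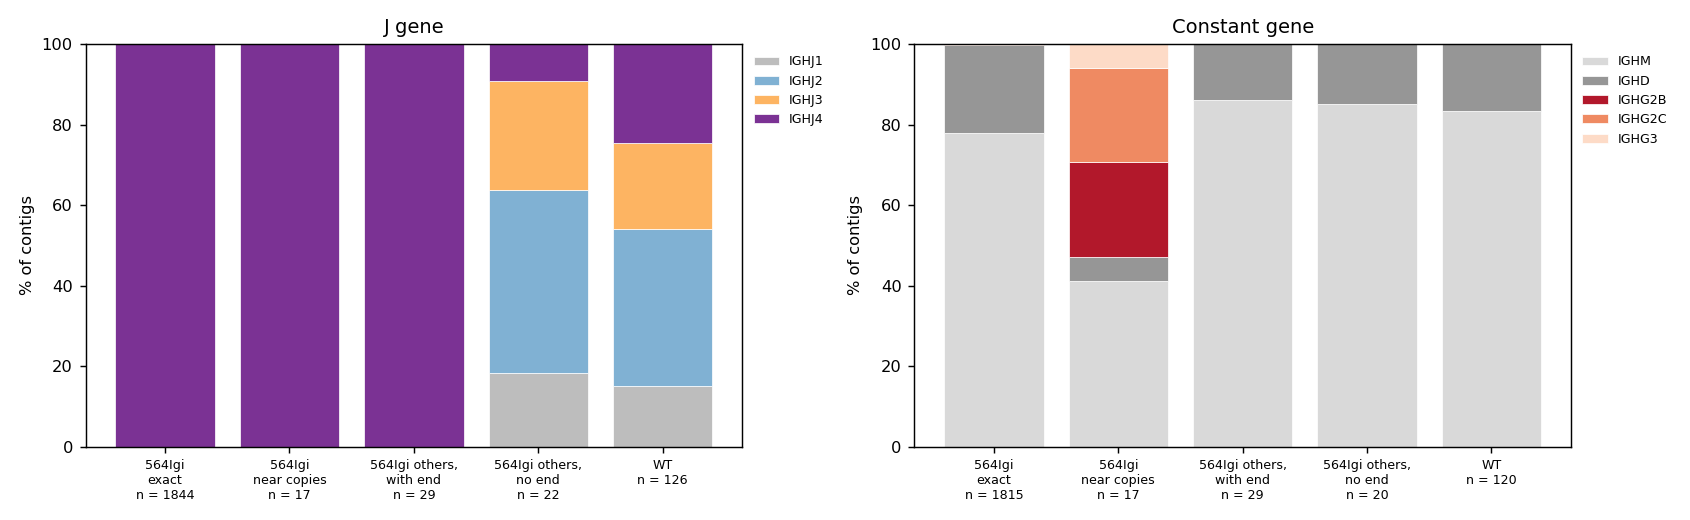
J genes (left) and named constant genes (right) as percentages of IGHV1-53 contigs in 5 groups, the others being split by the knock-in end. Switched IGHG genes make up 52.9% of the near copies, and IGHJ4 makes up all contigs of the exact class, the near copies and the others with the end, against 24.6% in WT.

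The switched near copies used 3 IgG genes. IGHG2C was found in 4 contigs, of 4355, 1290, 6 and 2 UMIs. IGHG2B was found in 4, of 62, 22, 19 and 15 UMIs, and IGHG3 in 1 of 9 UMIs. IGHM was named in 7 near copies and IGHD in 1. The median of the near copies was 22 UMIs (14 to 59), against 19 in the exact class, intervals that overlapped. Contigs of at least 100 UMIs were 3 of 17 near copies and 12 of 1844 exact contigs, a difference of 17.0 points (3.14 to 42.8). The near copies of 4355 and 1290 UMIs shared 1 CDR3, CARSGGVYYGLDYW. The interval counts them as separate, and the difference was not computed with each distinct CDR3 counted once.

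**Figure D3:**
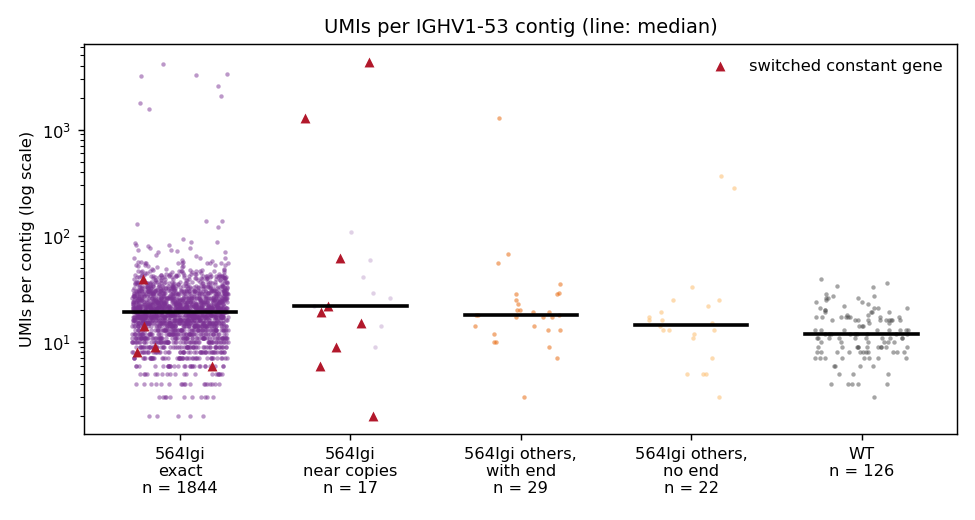
UMIs per IGHV1-53 contig on a log axis, 1 point per contig, with the median of each group as a line and contigs with a switched constant gene as triangles. The 2 highest near copies, at 4355 and 1290 UMIs, are switched, whereas the 8 exact contigs above 1000 UMIs are not, and no WT contig exceeds 39 UMIs.

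Light chains of the near copies were altered copies of the knock-in light chain or the chain itself. All 17 cells used IGKV4-59 with IGKJ5. The knock-in light CDR3 was intact in 9 of 17, 52.9% (27.8 to 77.0), against 97.0% in the exact class, a difference of -44.1 points (-69.2 to -20.0). The other 8 cells carried 7 distinct altered light CDR3s. Altered light chains were found in 4 of 9 switched and 4 of 8 unswitched near copies, and each feature was also found without the other.

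Some of these alterations were shared between cells. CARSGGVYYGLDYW (T19G and A31T) was found in 3 IGHG2C cells of 4355, 1290 and 2 UMIs. The deepest had the light chain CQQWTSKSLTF, with C21A and C22T, and the others had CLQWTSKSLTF, with A5T in addition. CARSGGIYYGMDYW (T19A) was found in 2 IGHG2B cells of 62 and 22 UMIs with the intact light chain. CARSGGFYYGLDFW, with IGHM at 41 UMIs, carried T18A in the light chain, the same change as in the 5 exact cells.
Light CDR3 of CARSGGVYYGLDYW, 4355 UMIs: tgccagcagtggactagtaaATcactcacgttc
Light CDR3 of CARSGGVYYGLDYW, 1290 and 2 UMIs: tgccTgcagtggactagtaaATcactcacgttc

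The remaining switched near copies were single cells. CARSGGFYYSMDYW (G28A) was IGHG2B at 19 UMIs, with T10A in its light chain. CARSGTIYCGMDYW (G16A, G17C, T19A and A26G) was IGHG2B at 15 UMIs, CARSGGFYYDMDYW (G29A) was IGHG2C at 6 UMIs and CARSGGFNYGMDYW (T22A) was IGHG3 at 9 UMIs, and these 3 had the intact light chain. The IGHM near copy with most UMIs, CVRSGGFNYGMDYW at 108, shared T22A with the IGHG3 cell and carried A20G in its light chain.

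Most near copies were very close to the knock-in CDR3. Of the 17, 8 differed at 1 residue, 7 at 2 and 1 at 3, none at 4 and 1 at 5. The 13 distinct CDR3s within 3 differences held 21 base substitutions at 12 of the 42 positions. They numbered 9 transitions and 12 transversions, and the knock-in base was A in 8, G in 7, T in 5 and C in 1. Substitutions fell most often in the codons of phenylalanine 7, tyrosine 9 and methionine 11, each altered in 3 distinct near copies, and the codons of the first cysteine, serine 4, glycine 5, aspartate 12 and tryptophan 14 were unaltered. All were replacements, which the class requires of at least 1 change per contig, and 0 of the 20 altered codons was silent.

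**Figure D4:**
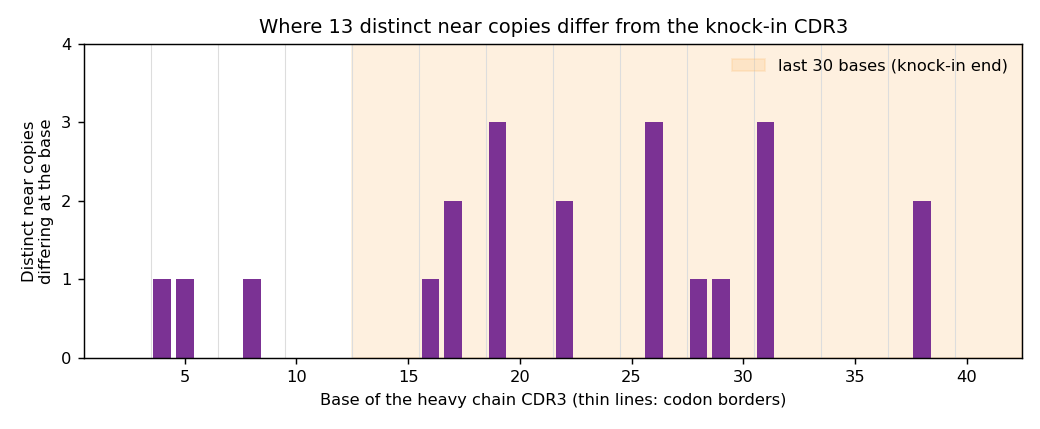
Number of distinct IGHV1-53 near copies (of 13 within 3 residue differences) that differ from the knock-in CDR3 at each of its 42 bases, with the last 30 bases shaded and codon borders as thin lines. The 12 altered positions are spread over both parts, and bases 19, 26 and 31 are altered in 3 near copies each.

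The near copy at 5 differences, just inside the limit, stood apart. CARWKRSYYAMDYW carried IGHD5-7 in place of IGHD3-1, did not carry the knock-in end, was IGHD at 9 UMIs and had the intact light chain. Among its 8 base differences was G29C. WT chains of IGHV1-53 with IGHJ4 carried G29C in 25 of 31 contigs when aligned at their last 18 bases, and in 19 of these as the sole difference there, whereas none of the 31 matched the knock-in over those bases. The only 3 contigs of the others with 14 residues lay further off, at 7, 8 and 9 differences. They were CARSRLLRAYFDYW, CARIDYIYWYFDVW and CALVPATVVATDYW, which used IGHJ2, IGHJ1 and IGHJ2.

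The WT mouse gives the background of such likeness. Of 18 WT contigs of IGHV1-53 with 14 residues, 4 lay within 5 differences, 22.2% (6.41 to 47.6), and their lowest distance was 3, in the IGHM contig of 13 UMIs with IGHD3-1 and IGHJ4 printed above. Of 823 WT contigs of other V genes with that length, 74 lay within 5 differences, 8.99% (7.13 to 11.2), and 2 within 3. WT contigs of this length were thus found at distances of 2, 3, 4 and 5, and none at 1, whereas 8 of the 17 near copies lay at 2 or 3 differences and 8 at 1.

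Near copies also occurred under other V gene names. Within 3 differences lay 16 of the 17 with IGHV1-53 and 13 of the 25 with another name. Switched genes were named in 9 of the 17 and in 1 of the 25. The knock-in end was carried by 15 of the 17 and 8 of the 25. IGHV1-64 held 7, all within 3 differences, of which 1 was switched and 2 had altered light chains. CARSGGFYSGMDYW (A26C) was found in 3 IGHV1-64 cells, with IGHM at 48 UMIs, IGHG2C at 8 and IGHM at 6. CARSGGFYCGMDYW (A26G) was found once under each V name, at 29 UMIs with IGHV1-53 and 9 with IGHV1-64. The light chain change T10G was found with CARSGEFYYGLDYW of IGHV1-53, at 59 UMIs, and with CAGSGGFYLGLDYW of IGHV1-64, at 75 UMIs. In GRCm38.p6 Ighv1-64 lies at chromosome 12, 115507587 to 115507977. Which V sequence these contigs carry could not be read from the tables.

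The others split into contigs with and without the knock-in end. The end, defined with up to 2 mismatches, was found in 29 of 51, 56.9% (42.2 to 70.7), and all 29 matched its 30 bases in full. Their match to the knock-in CDR3, counted from the last base, ran from 30 to 40 bases with a median of 36. A count of 28 were longer than the knock-in CDR3, by a median of 6 and at most 12 residues, and 1, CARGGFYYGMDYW, was shorter. The end includes the J segment bases, so the IGHJ4 of all 29 follows from how they were picked.

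Contigs without the end used all 4 J genes. They carried IGHJ2 in 10 of 22, IGHJ3 in 6, IGHJ1 in 4 and IGHJ4 in 2, 9.09% (1.12 to 29.2). WT contigs used IGHJ2 in 49 of 126, IGHJ4 in 31, IGHJ3 in 27 and IGHJ1 in 19. IGHJ4 was used by 24.6% (17.4 to 33.1) in WT, so the difference of the 22 contigs from WT, -15.5 points (-27.1 to 5.82), included 0. All 51 others together used IGHJ4 in 60.8% (46.1 to 74.2), a difference from WT of 36.2 points (19.2 to 51.4). In other V genes IGHJ4 was used by 59.7% of 564Igi and 28.1% of WT contigs.

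CDR3 length followed the same split. It had a median of 20 residues (19 to 22) in the others with the end, 12 (11 to 15) in those without it and 14 (13 to 14) in WT. The ranges were 13 to 26 residues with the end, 8 to 18 without it and 7 to 20 in WT. Over 14 residues were 66.7% of all others, against 38.9% of WT contigs, a difference of 27.8 points (10.6 to 43.0). For the contigs without the end the difference from WT was -11.6 points (-30.5 to 12.9). The long CDR3s of IGHV1-53 in 564Igi were thus mostly those that kept the knock-in end, 28 of 34. By rule, chains of 14 residues with the end belong to the exact class or the near copies. The others with the end therefore could not have that length, which 18 of 126 WT contigs had. Their median of 20 residues and the difference of 27.8 points are partly set by the class rules.

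**Figure D5:**
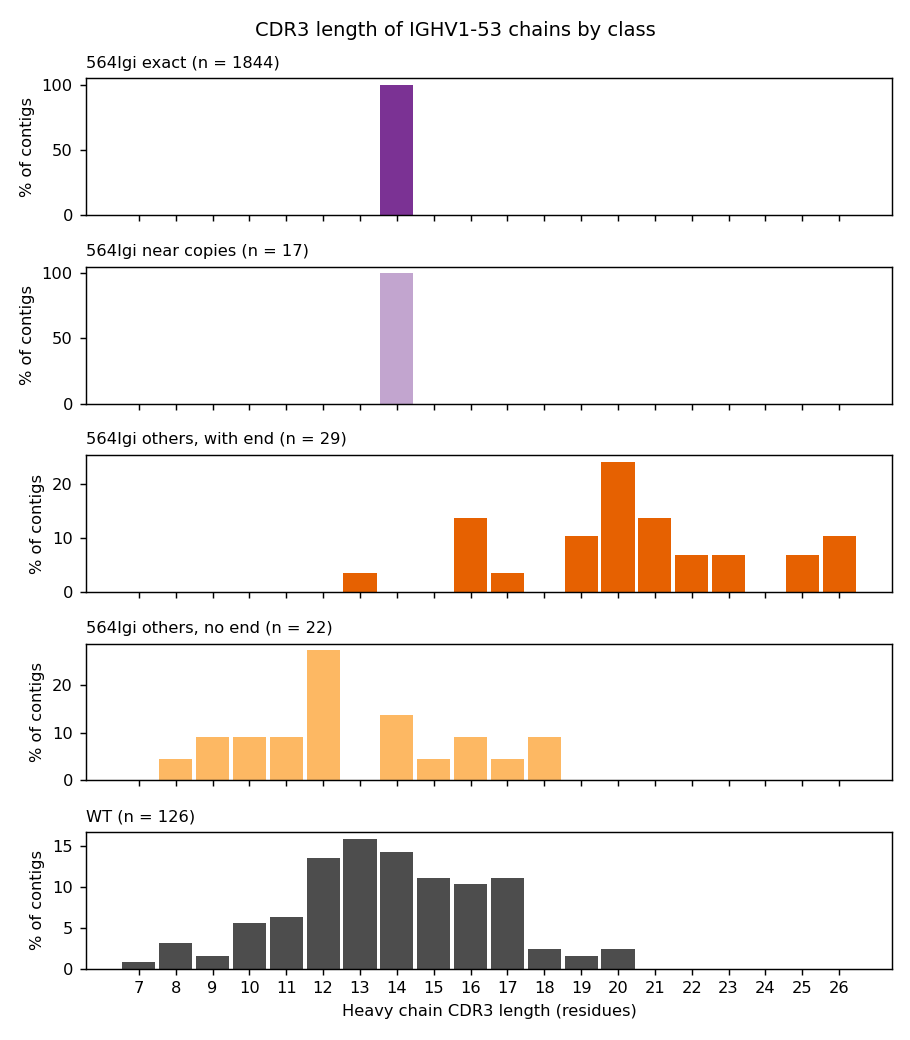
Heavy chain CDR3 length in residues as a percentage of contigs in each group of IGHV1-53 chains. The exact class and near copies sit at 14 residues by definition, a length that the others with the end cannot have. The others with the end peak at 20, those without it at 12, and WT contigs range from 7 to 20.

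The counts of D gene names also differed with the end, on few contigs. The most frequent among the others with the end were IGHD2-4 in 10 of 29, IGHD1-1 in 6, IGHD2-3 in 4, IGHD2-7 in 3 and IGHD2-8 in 3. Without the end they were IGHD1-1 in 9 of 22 and IGHD4-1 in 5, with no D named in 4, and IGHD2-3, IGHD2-5, IGHD2-8 and IGHD5-8 in 1 each. In WT they were IGHD1-1 in 42 of 126, IGHD2-4 in 19, IGHD2-3 in 16, IGHD4-1 in 11 and IGHD2-5 in 7, with no D named in 13. The IGHD1-1 share was 20.7% with the end, a difference from WT of -12.6 points (-28.2 to 8.06), so these counts do not set the groups apart for that gene. The IGHD2-4 share was 34.5% (17.9 to 54.3) with the end and 15.1% (9.33 to 22.5) in WT, intervals that overlapped. Without the end it was 0 of 22, which allows up to 13.6%. Of the 10 IGHD2-4 contigs with the end, 3 shared 1 CDR3. D names of chains with the end can rest on added bases or on bases kept from the knock-in. They are less certain, since the end itself holds bases in front of the J segment. IGHD3-1, the D name of the knock-in, was given to 1 of the 29. In other V genes of 564Igi it was given to 10.2% of contigs, and to 2.46% of those without the end.

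A feature of the second residue was noticed after the values had been seen. Of the 29 contigs with the end, 12 began with tgtaca, which codes for cysteine and threonine, 41.4% (23.5 to 61.1), with 12 distinct CDR3s and 3 to 67 UMIs. They carried 5 D gene names, and 1 had no D named. None of the 22 without the end did, which allows up to 13.6%, and none of 126 WT contigs, which allows up to 2.38%. Over all V genes, this start was found in 46 of 749 longer 564Igi chains with the end and in 181 of 5195 WT contigs. Longer chains with the end named IGHV1-55 showed the same start in 8 of 8, against 0 of 112 in WT. Those named IGHV1-69 showed it in 5 of 18, against 0 of 89. Those named IGHV6-3 showed it in 2 of 2, against 1 of 106 in WT. Other genes with such starts in 564Igi had them in most WT chains too, as IGHV5-9-1 in 2 of 14 such 564Igi chains and 23 of 23 WT chains, IGHV1-15 in 7 of 7 such 564Igi chains and 107 of 121 WT chains, and IGHV1-5 in 10 of 25 and 45 of 54 in 564Igi and WT. The cause was not tested.

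The others carried unswitched constant genes, and nearly all were found with the knock-in light chain. IGHM was named in 42 of 49 and IGHD in 7, 14.3% (5.94 to 27.2), against IGHM in 100 of 120 and IGHD in 20, 16.7% (10.5 to 24.6), in WT. The knock-in light chain was the light chain with most UMIs in 46 of 49 cells, 93.9% (83.1 to 98.7), a difference of -3.15 points (-13.9 to 1.78) from the exact class. Without the requirement of the high-confidence flag it was -6.96 points (-17.6 to -0.550), an interval that left out 0. It was found in 22 of 22 without the end and 24 of 27 with it, where the other 3 cells used IGKV1-117, IGKV6-17 and IGLV2. When any contig of the cell was counted, all 49 held it. In other V genes of 564Igi it was the light chain with most UMIs in 83.1%, and 92.2% held it in any contig.

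The net charge of the CDR3 was 1 or more, counting arginine and lysine minus aspartate and glutamate, in 48.3% (29.4 to 67.5) of the others with the end and 22.7% (7.82 to 45.4) of those without it, against 31.7% (23.7 to 40.6) in WT. The differences from WT were 16.5 points (-4.29 to 37.3) with the end and -9.02 points (-26.4 to 15.0) without it. Both intervals included 0 for this feature, which has been studied in autoantibodies. In other V genes it was found in 32.3% of 564Igi and 23.8% of WT contigs.

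Among the others, 2 CDR3s were repeated in several cells. The chain of 26 residues with the end and IGHD2-4, printed above, was found in 3 IGHM cells of 1289, 19 and 9 UMIs. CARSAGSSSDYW, without the end, was found in 2 IGHM cells of 365 and 33 UMIs. Each repeat had 1 cell far deeper than the rest. A single IGHM cell without the end, of 18 residues with IGHD1-1 and IGHJ2, had 281 UMIs.

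WT chains of IGHV1-53 were diverse and shallow. The 126 contigs of 125 cells had 126 distinct CDR3s. The 564Igi others had a median of 17 UMIs (14 to 19), against 12 (11 to 13) in WT, where the range was 3 to 39. The median number of reads behind each UMI was 35.7 in the 564Igi others and 20.4 in WT, and whether sequencing depth sets the UMI difference was not tested. In other V genes the medians were 15 UMIs in 564Igi and 14 in WT. The knock-in light CDR3 was found in 0 of 124 WT cells with a light chain, which allows up to 2.42%, and these cells carried 101 distinct light CDR3s from 49 V genes, with lambda in 5.

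A second heavy chain contig was present in 49 of 1844 cells of the exact class, 2.66% (1.97 to 3.50), against 14 of 126 contigs in WT, 11.1% (6.21 to 17.9). In other V genes the share was 11.1% of 1681 contigs in 564Igi and 13.9% of 5069 in WT. The 49 partners in the exact class used 28 V genes, and 21 carried the knock-in end. The exact chain had more UMIs than its partner in 23 of the 49. Among the others 4 of 51 had a second heavy chain, and in 2 of these, both without the end, the partner had the knock-in CDR3. Droplets holding 2 B cells would add to all these counts, and their part was not tested.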

How the data were processed

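B cell and T cell V(D)J tables of 1 564Igi and 1 WT mouse were used. Per the file headers, each deposited table lists contigs with raw read and UMI counts, which the authors did not normalize, with a length in bases (another deposited measure), a cell call, a confidence flag, gene names and the CDR3. Cell Ranger 3.0.2 and the build mm10 are named in the submitters' processing notes, without their roles. The setting of the flag is not given in the sources.

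Barcodes called in both tables of a mouse (373 in 564Igi, 345 in WT) were left out. Only productive contigs with the flag and at least 2 UMIs were used. The members, classes, knock-in end and lists were chosen with earlier results of these data known. Intervals are exact (Clopper-Pearson) or, for differences, Newcombe, at 95%, and medians carry exact order-statistic intervals. Beside a count of 0 stands the share of 3 counts. PCR copies share UMIs, and intervals cover counting error only.

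Named were all J and constant genes, the 5 most frequent D genes per class, near copies that were switched or held by several cells, V genes with the knock-in CDR3, and the 3 V genes most alike in log2 ratio. Other features were named after their values were seen. Alternatives changed the UMI minimum (1, 5 or 10), the cell, chain, end and near copy definitions and the unit, and 1 alternative, without barcodes called B cells in both mice, was chosen after seeing the data. The class rules were tested on simulated data. Coordinates are those of RefSeq GRCm38.p6. The tools were SciPy 1.17.1, NumPy 2.4.6, pandas 2.3.3, matplotlib 3.10.9 and Python 3.11.15.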

Additional observations from a re-analysis of the deposited data

Results flagged for a closer look

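Signal of IGHV1-53 also appeared in barcodes that hold no member. In 564Igi, 636 of 4573 barcodes called T cells alone held a productive IGHV1-53 contig, 13.9% (12.9 to 14.9), against 1 of 3263 in WT, 0.0306%. These 564Igi contigs had a median of 3 and at most 10 UMIs, and 633 had the knock-in CDR3, whereas the exact class in B cells had a median of 19 UMIs. Barcodes called neither B nor T cell held 128 IGHV1-53 contigs in 564Igi, 117 with the knock-in CDR3 and with a median of 4 UMIs, and 0 in WT. Of the contigs in the WT B cell table, 1 carried the knock-in CDR3, with IGHV1-53 and 3 UMIs, in a barcode not called a B cell.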

How the results depend on the processing

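Under 18 alternatives, 218 of 229 values lay within the counting interval of the value reported, and none reversed a called difference. Some of the 218 could not change, such as the V gene shares and the WT values under other near copy limits. The 564Igi share of IGHV1-53 was 56.1% where a cell held 1 heavy and 1 light chain and no more, 57.4% with at least 10 UMIs and 3.74% with each distinct CDR3 counted once. That last setting also put the exact class at 3.13% and the near copies at 21.9% of 564Igi contigs, and the exact class median at 2110 UMIs over 2 sequences, because it counts 1844 copies of 1 chain as few. With so few sequences, the differences of near copies from the exact class in switched genes, 42.9 points (-45.0 to 71.1), and in the knock-in light chain, -42.9 points (-71.1 to 45.0), had intervals that included 0. With up to 2 mismatches allowed in the knock-in light chain, the difference of near copies from the exact class was -9.14 points (-33.8 to 1.20). This interval included 0, since altered copies then count. The difference of the others from the exact class was 1.88 points in such cells and 2.04 points with any contig, and -6.96 points (-17.6 to -0.550) when the high-confidence flag was not required. With at least 10 UMIs the medians were 20 UMIs in the exact class and 16 in WT. No paired analysis was possible because each group was 1 mouse, and for the same reason no replicate could be left out. Near copies rest on 17 cells and the others on 51, so their intervals are wide. Depth limits every count of 0, and the knock-in chain was read in T cell barcodes at a median of 3 UMIs, a level some members share. Genotype, animal and library cannot be told apart.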
